A study of Rattus norvegicus with 2 samples.

Results

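Levels of the genes that make, break down and respond to cyclic AMP were compared between colony No.4 and colony No.8, single colonies of the rat glioma line C6. The genes were those whose symbol named an adenylyl cyclase, a phosphodiesterase, a subunit, inhibitor or anchor of protein kinase A, an EPAC exchange factor, a CREB protein or a CRTC coactivator. Of 18166 genes measured, 71 met this rule. Each colony was measured on 1 whole-transcript array, so every value below is a single measurement without replicates, the number of arrays limits its precision, and no test, p-value or error was computed. Both colonies derive from C6, are titled undifferentiated and were grown in medium with 10% serum. Both carry the same treatment text, which names 35 days with forskolin (100 µM) and CHIR99021 (20 µM), an inhibitor of the kinase GSK3. Forskolin activates adenylyl cyclase directly, and the labels do not say whether the RNA was taken before or after that treatment. Each is a single colony, measured once, so a difference between colonies cannot be told apart from a difference between cultures or arrays.

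Cyclic AMP is the second messenger of receptors that couple to the stimulatory G protein. Adenylyl cyclases make it from ATP and phosphodiesterases hydrolyse it. Inside the cell it releases the catalytic subunits of protein kinase A from their regulatory subunits, and it activates the EPAC proteins, which load the small GTPase RAP1 with GTP. Freed catalytic subunits phosphorylate CREB1, which binds the cyclic AMP response element in promoters and recruits the coactivators CREBBP and CRTC. C6 cells have long been used to study this pathway because they answer beta-adrenergic agonists with cyclic AMP.

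Levels are the deposited values in log2 units, and a difference is the level in No.8 minus that in No.4. A gene was counted as past the floor when its level in either colony was 4.33 or more, the median over the whole deposited table. A higher mark, 5.67, is the 99th percentile of 1184 olfactory receptor genes, whose expression is largely limited to sensory neurons of the nose. Levels between the 2 marks may lie near background. Levels of different genes were not ranked, since array features differ in brightness. As a check of the label, the glial and progenitor genes S100b, Vim, Nes, Sox2 and Cnp were above 8 in both colonies, and Gfap was at 4.11 in No.4 and 5.17 in No.8. Of 13 measured markers of neurons, microglia and blood, endothelium and fibroblasts, 11 were below the floor in both colonies. The others were Rbfox3, between the marks at 4.68 and 4.76, and Pdgfra, at 10.24 and 9.53.

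The members differed between the colonies about as much as all genes did, and the largest difference was that of Creb3l1, a membrane-bound relative of CREB1 that is not an effector of cyclic AMP. Of the 71 members, 49 were past the floor (69.0%, against 60.9% of all genes) and 36 reached 5.67. Among these 49, colony No.8 had the higher level by 1.5-fold or more for 9 genes (18.4%), and colony No.4 for 2 (4.08%). Over all 11069 genes past the floor, the shares were 9.87% and 7.93%. In both directions together, 22.4% of the members and 17.8% of all genes differed by 1.5-fold. A 2-fold difference was reached by Creb3l1 alone, in favour of No.8, where 2.91% of all genes past the floor were 2-fold higher in No.8, 2.57% in No.4 and 5.47% in both directions together. The median size of the difference, whatever its sign, was 0.27 over the members and 0.26 over all genes past the floor. The signed median difference was 0.17 over the 49 members and 0.04 over all genes past the floor, and 32 of the 49 were higher in No.8, or 65.3% against 53.2% of all genes. Without the enzymes specific for cyclic GMP and other symbols that the rule takes in by spelling, 37 members were past the floor. Of these, 7 differed by 1.5-fold (18.9%), 5 of them higher in No.8 (13.5%) and 2 in No.4 (5.41%), and 0 by 2-fold, with a median of 0.09. By any amount, 22 of these 37 were higher in No.8 (59.5%, against 53.2% of all genes). The shares in both directions together thus lay near that of all genes. More of the 49 members were higher in No.8 than in No.4, a lean that was smaller among the 37. Pde7b, Prkar2a and Creb5 no longer reached 1.5-fold once the median difference of all genes was subtracted (centring) or after a loess correction, and Crebl2 did not after the latter.

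**Figure D1:**
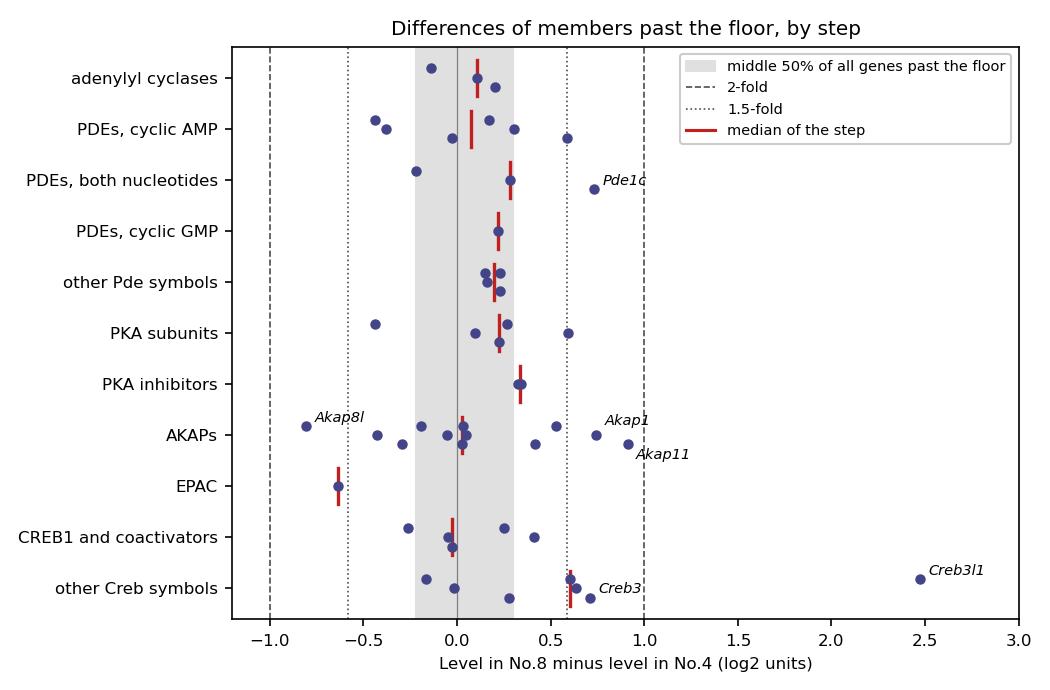
Difference of each member past the floor, as the level in No.8 minus that in No.4 (log2 units), by step of the pathway. Each point is 1 gene, each red line the median of its step, and the grey band the middle 50% of all genes past the floor (-0.22 to 0.30); Creb3l1, at 2.47, is the only point beyond the 2-fold lines.

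Among the adenylyl cyclases, the enzymes that make cyclic AMP, Adcy6 was the one gene past 5.67. Its level was 6.49 in No.4 and 6.60 in No.8, a difference of 0.11. The Adcy6 enzyme is inhibited by calcium and by the inhibitory G proteins. Adcy3 (4.14 and 4.35) and Adcy7 (4.38 and 4.24) each passed the floor in 1 colony by under 0.1 units. The other 6 cyclases stayed below the floor in both colonies, with levels between 3.28 and 3.99. They were the calcium-stimulated Adcy1 and Adcy8, Adcy2, Adcy4, Adcy5 and the soluble, bicarbonate-stimulated Adcy10. None of the 3 cyclases past the floor differed by 1.5-fold, a mark that 17.8% of all genes past the floor reached. Adcy9 is not analysed here.

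Phosphodiesterases that hydrolyse cyclic AMP went in both directions. Of the 8 genes for enzymes specific for cyclic AMP, the PDE4, PDE7 and PDE8 families, 6 were past the floor, 3 of them higher in each colony. Pde7b was at 5.44 in No.4 and 6.03 in No.8, a difference of 0.59, just past the 1.5-fold mark of 0.58. Its relative Pde7a had the opposite sign, at 6.54 and 6.16, a difference of -0.38. The PDE4 enzymes, the targets of rolipram, are known as feedback brakes on the signal. Pde4a was at 4.91 and 5.08, Pde4b at 5.14 and 5.44, and Pde4c at 4.98 and 4.95, all between the floor and 5.67. Pde4d was below the floor in both colonies, at 3.07 and 3.20. The other feature of Pde4c was also below the floor, at 3.87 and 4.11. Pde8b was past the floor in No.4 alone, at 4.40 against 3.96, and Pde8a was below it in both.

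The enzymes that accept both cyclic AMP and cyclic GMP included the only other phosphodiesterase at 1.5-fold. Pde1c, a calcium and calmodulin-dependent enzyme, had a level of 5.76 in No.4 and 6.49 in No.8 (0.73, 1.66-fold). The 2 other genes of that calmodulin-dependent family, Pde1a and Pde1b, were below the floor in both colonies. Pde3b, the cyclic GMP-inhibited enzyme through which insulin lowers cyclic AMP in fat cells, was at 7.30 and 7.59 (0.28). Pde2a, which cyclic GMP stimulates, was at 4.99 and 4.77. Pde3a and the striatal enzyme gene Pde10a were below the floor. Over all 20 catalytic phosphodiesterases, 10 were past the floor, a smaller share than the 60.9% of all genes. Of these 10, Pde7b and Pde1c were the 2 that differed by 1.5-fold (20.0%, near the 17.8% of all genes past the floor). Pde1c still reached 1.5-fold after centring and after the loess correction, and Pde7b did so after neither.

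The enzymes specific for cyclic GMP were near or below the floor. Pde5a, the target of sildenafil, and the photoreceptor genes Pde6a, Pde6b and Pde6c were below it in both colonies, and Pde9a reached it in No.8 alone (4.16 and 4.38). Another 4 symbols of the rule name no cyclic nucleotide-hydrolysing enzyme. Pde6d, which carries prenylated proteins between membranes, was at 7.07 and 7.30, and Pde12, a mitochondrial enzyme that trims RNA tails, at 6.32 and 6.47. Pde4dip, the centrosome and Golgi protein myomegalin, was at 5.45 and 5.61. Pde6h, an inhibitory subunit of cone photoreceptors, was at 4.87 and 5.10, between the 2 marks. All 4 were higher in No.8, by 0.15 to 0.23, within the middle 50% of all genes past the floor (-0.22 to 0.30). Of those genes, 53.2% were higher in No.8.

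**Figure D2:**
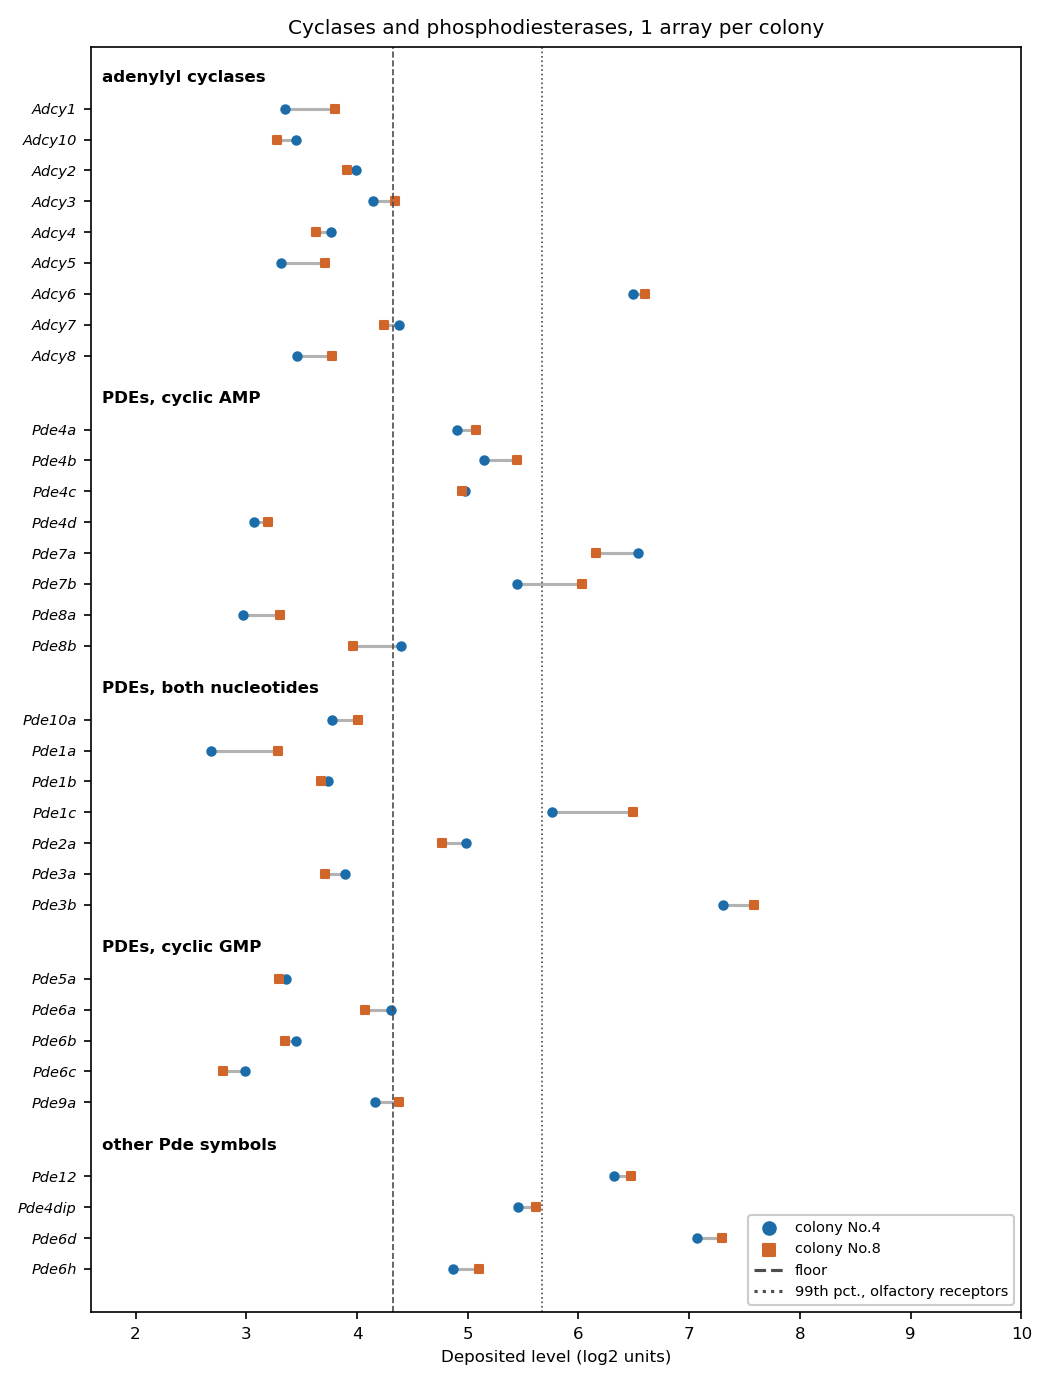
Deposited level (log2 units) of each adenylyl cyclase and phosphodiesterase gene in colony No.4 (circles) and colony No.8 (squares), 1 array per colony, with the floor of 4.33 (dashed) and the mark at 5.67 (dotted). Of the cyclases, only Adcy6 lies to the right of the dotted line; Pde1c and Pde7b are the phosphodiesterases past the floor with the widest gaps between colonies.

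All 5 measured subunits of protein kinase A were above 5.67 in both colonies, and the type II regulatory subunits were of opposite sign. Prkaca and Prkacb, the catalytic subunits, were at 8.39 and 8.49, and at 7.65 and 7.92, in No.4 and No.8. Prkar2a, the RII alpha subunit, was at 7.38 in No.4 and 7.97 in No.8, a difference of 0.59 (1.51-fold). Prkar2b, the RII beta subunit, was at 7.75 and 7.31, a difference of -0.44 (1.35-fold higher in No.4). Colony No.8 thus had the higher Prkar2a level and colony No.4 the higher Prkar2b level. Prkar2a did not reach 1.5-fold after centring or the loess correction. Among all genes past the floor, 17.4% differed at least as much as Prkar2a and 28.8% at least as much as Prkar2b. Prkar1b, a type I regulatory subunit, was at 5.83 and 6.06. Prkar1a is not analysed here.

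The protein kinase A inhibitors are small proteins that occupy the substrate site of the free catalytic subunit and carry it out of the nucleus. Pkib had a level of 7.01 in No.4 and 7.36 in No.8 (0.34), and its other feature was below the floor, at 3.39 and 3.45. Pkig was at 7.28 and 7.60 (0.33). Both were higher in No.8, by 1.27-fold and 1.25-fold. Among all genes past the floor, 39.2% differed at least as much as Pkib and 41.1% at least as much as Pkig. Pkia was below the floor in both colonies.

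A-kinase anchoring proteins tie protein kinase A to particular places in the cell, and they held the widest differences within the pathway proper. Of 15 genes, 12 were past the floor, 7 higher in No.8 and 5 in No.4, with a median difference of 0.03, against 0.04 over all genes. Akap11, an anchor that also binds GSK3 and takes part in the removal of type I regulatory subunits by autophagy, had a level of 6.47 in No.4 and 7.38 in No.8 (0.91, 1.88-fold). Akap1, the anchor of the outer mitochondrial membrane, was at 5.78 and 6.52 (0.74, 1.67-fold). Akap8l, a nuclear protein, was at 7.99 and 7.18 (-0.81, 1.75-fold higher in No.4). Its neighbour in the genome, Akap8, which anchors the kinase to chromatin, was at 7.42 and 7.45. Akap8l and Akap8 are related in sequence, and whether this affects single values was not tested. Among all genes past the floor, 6.93% differed at least as much as Akap11, 9.18% as Akap8l and 11.0% as Akap1.

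Further anchors differed by less than 1.5-fold. Akap5, the anchor of postsynaptic receptors and calcineurin, was at 5.01 and 5.53 (0.53), both under 5.67. Akap6, which sits at the nuclear envelope of muscle cells, was at 6.49 and 6.90 (0.42). Akap12, also called gravin, a scaffold of the beta-adrenergic receptor, was at 7.58 and 7.16 (-0.43). The centrosomal anchor gene Akap9 was at 7.65 and 7.68, and Akap13 at 8.20 and 8.01. Akap7, Akap10 and the splicing-linked Akap17a differed by -0.05, -0.29 and 0.05. The sperm and cilium anchor genes Akap3, Akap4 and Akap14 were below the floor in both colonies, at 2.62 to 3.69. Of 11 measured anchors known by other names, 8 were past the floor and 0 of these differed by 1.5-fold, against 17.8% of all genes. Among the 11 were the microtubule protein gene Map2 (8.10 and 8.50) and Wasf1 (6.69 and 7.17).

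The EPAC branch had 1 gene past the floor. Rapgef3, which encodes EPAC1, was at 5.46 in No.4 and 4.82 in No.8, a difference of -0.64 (1.56-fold higher in No.4). Both levels lay under 5.67, so the difference may lie near background. Rapgef4, which encodes EPAC2, was below the floor at 3.93 and 4.12. The genes of their target, Rap1a (8.60 and 8.53) and Rap1b (10.37 and 10.56 on the brightest of its 3 features), were well past both marks. The other Rap1b features were at 5.52 in No.4 and 5.93 in No.8, near the higher mark.

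CREB1 and its coactivators differed little. Creb1 had a level of 7.36 in No.4 and 7.10 in No.8 (-0.26), and its other feature was at 7.27 and 7.15 (-0.12). Crebbp, the acetyltransferase that binds phosphorylated CREB1, was at 7.67 and 8.09 (0.41). The CRTC coactivators enter the nucleus when the salt-inducible kinases that phosphorylate them are shut off by protein kinase A. Crtc1, Crtc2 and Crtc3 differed by -0.05, 0.25 and -0.03. All 5 genes were above 5.67 in both colonies and none differed by 1.5-fold, a mark that 17.8% of all genes past the floor reached.

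The other genes with a Creb symbol held 4 of the 11 differences of 1.5-fold, all in favour of No.8, among 7 genes past the floor (57.1%, against 9.87% of all genes in that direction). Of the 4, Creb5 did not reach 1.5-fold after centring, and neither Creb5 nor Crebl2 did after the loess correction. The Creb3 subfamily encodes factors held in the endoplasmic reticulum membrane, which are cut in the Golgi to release their active part and are not switched on by protein kinase A. Creb3l1, also called OASIS, is known from bone-forming cells, where it drives collagen secretion. Its level was 4.03 in No.4, below the floor, and 6.50 in No.8. The difference was 2.47, and 47 of the 11069 genes past the floor (0.42%), Creb3l1 included, were at least as far apart. Counted from the floor it was at least 4.50-fold higher in No.8, and counted from 5.67 at least 1.77-fold, under 2-fold. Creb3 was at 7.19 and 7.90 (0.71, 1.63-fold). Creb3l2, which acts in secretory cells, was at 9.44 and 9.43. Creb3l3, a liver and gut factor, was at 5.39 and 5.67, and Creb3l4 was below the floor in both colonies.

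Creb5, which binds the response element with partners of the AP-1 type, had a level of 6.18 in No.4 and 6.78 in No.8 (0.60, 1.52-fold). Crebl2, a small regulator of the CREB type, was at 4.95 and 5.58 (0.63, 1.55-fold), both under 5.67. Crebzf, a partner of the cellular coactivator HCFC1, was at 7.20 and 7.03. Crebrf is not analysed here.

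**Figure D3:**
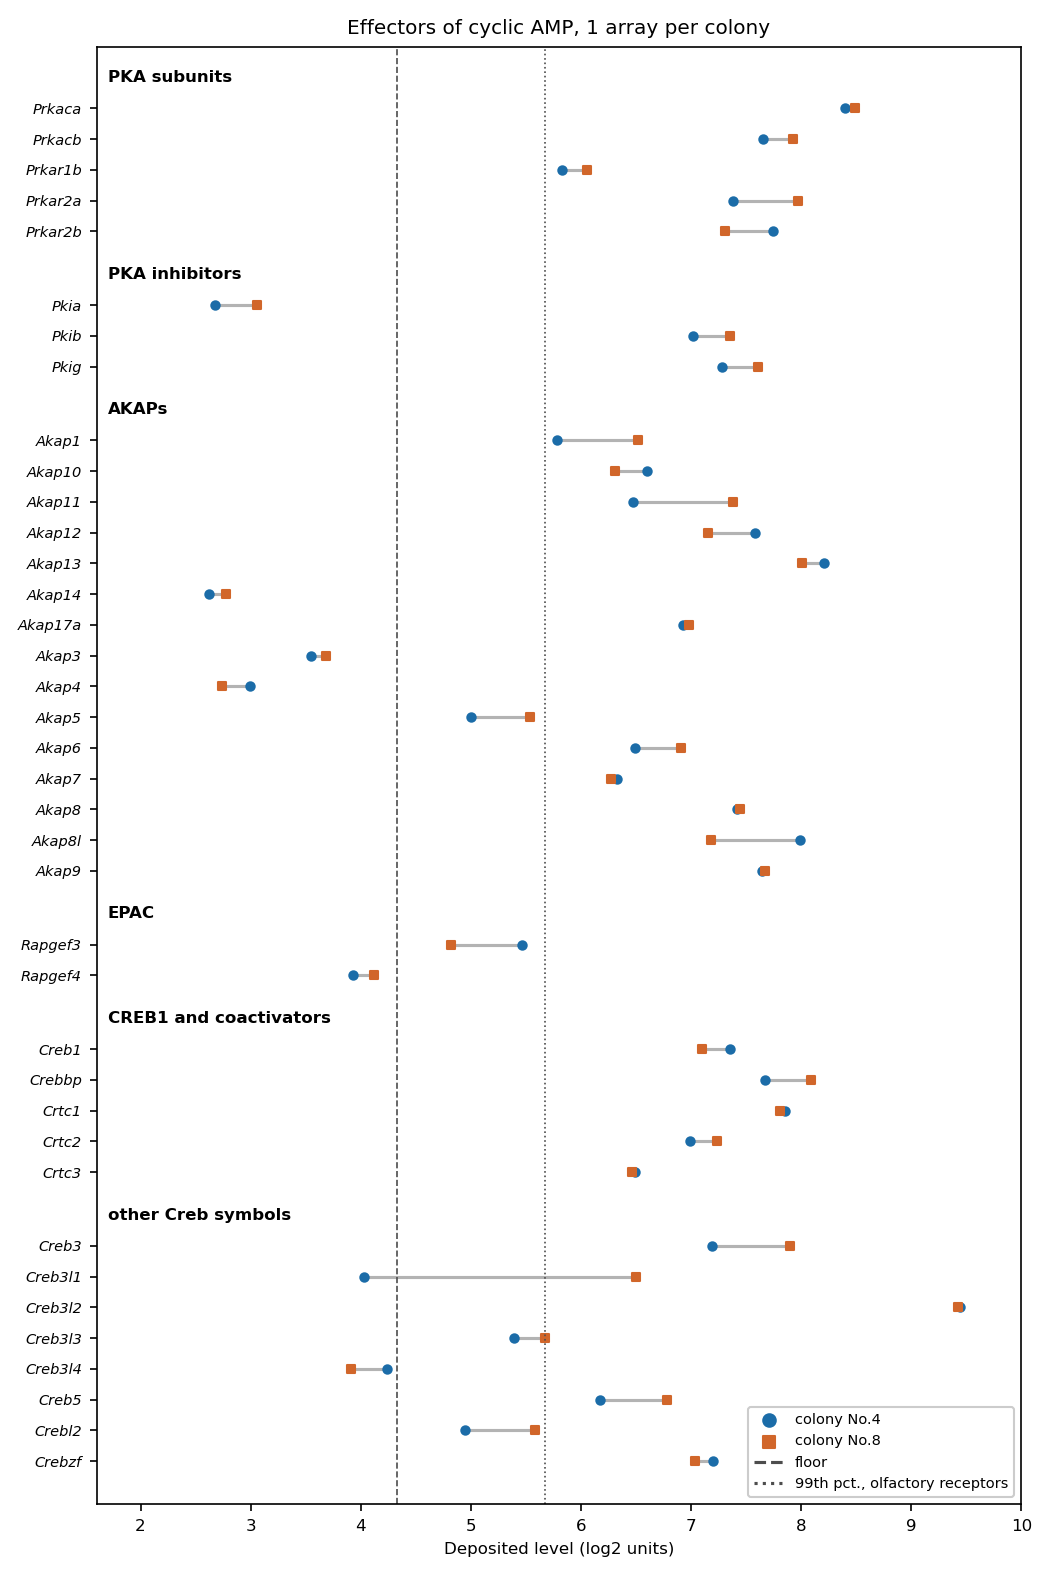
Deposited level (log2 units) of each effector gene and each other gene with a Creb symbol in colony No.4 (circles) and colony No.8 (squares). Each colony has 1 array, and lines mark the floor of 4.33 (dashed) and the mark at 5.67 (dotted). Creb3l1, which is not an effector of cyclic AMP, has the widest gap, at 4.03 and 6.50. All protein kinase A subunits, CREB1 and its coactivators lie to the right of the dotted line.

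Promoter sequences are shown for the 2 members with the largest differences, Creb3l1 and Akap11, and for Akap17a, which had the one full response element. The stretch is the 250 bases before the gene's start in RefSeq's GRCr8 assembly, at chr3:98449105-98449354 on the minus strand for Creb3l1, chr15:60365336-60365585 on the minus strand for Akap11 and chr12:21428248-21428497 on the minus strand for Akap17a. Capitals mark the core motif TGACG or its reverse complement CGTCA, which together make up the palindromic full element TGACGTCA.
Creb3l1: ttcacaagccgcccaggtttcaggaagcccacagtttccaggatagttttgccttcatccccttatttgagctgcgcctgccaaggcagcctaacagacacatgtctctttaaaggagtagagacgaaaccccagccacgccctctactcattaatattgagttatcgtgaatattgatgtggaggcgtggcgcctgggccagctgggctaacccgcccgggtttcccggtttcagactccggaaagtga
Akap11: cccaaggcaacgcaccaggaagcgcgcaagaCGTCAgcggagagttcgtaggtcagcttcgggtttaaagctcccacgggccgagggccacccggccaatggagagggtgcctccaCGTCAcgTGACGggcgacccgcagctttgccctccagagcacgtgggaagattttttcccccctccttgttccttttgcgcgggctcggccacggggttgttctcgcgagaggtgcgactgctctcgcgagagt
Akap17a: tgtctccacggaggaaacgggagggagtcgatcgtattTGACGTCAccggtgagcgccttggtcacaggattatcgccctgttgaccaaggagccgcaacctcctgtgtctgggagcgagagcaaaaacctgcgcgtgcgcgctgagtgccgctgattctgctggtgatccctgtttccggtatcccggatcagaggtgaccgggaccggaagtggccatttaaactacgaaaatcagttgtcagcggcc
Akap11 had 3 copies of the core motif and Creb3l1 had 0. Promoters were found for 57 of the 71 members. The full element was in 1 of them (1.75%), against 1.7% of 27457 promoters in all, and the core motif, full elements included, in 10 (17.5%) against 19%. Prkaca and Creb1 had 2 copies of the core motif each. Both shares lay near those of all promoters, and a match of letters does not show that a factor binds.

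Genes around the core pathway were taken from a list of receptors, G proteins, exporters and other effectors. Of 30 measured, 20 were past the floor, 12 higher in No.4 and 7 in No.8, and 1 equal in both, with a median of -0.16. The share higher in No.8 was 35.0%, against 53.2% of all genes past the floor, whose median was 0.04. At 1.5-fold, 4 were higher in No.4 (20.0%, against 7.93% of all genes) and 0 in No.8 (against 9.87%), in both directions together near the 17.8% of all genes. Adrb1, the beta-1 adrenergic receptor, had a level of 6.92 in No.4 and 6.23 in No.8 (-0.69, 1.62-fold). Abcc4, a transporter that exports cyclic AMP, was at 8.40 and 7.39 (-1.01, 2.01-fold). The salt-inducible kinase genes Sik1, at 7.31 and 6.28 (-1.03), and Sik2, at 8.84 and 7.88 (-0.96), were the others. Gnas, the stimulatory G protein alpha subunit, was near the floor on the brighter of its 2 features, at 4.53 and 4.24, and below it on the other, at 3.42 and 3.48. Whether these 2 features measure the main Gnas transcript was not tested, so its expression is not judged here. Gnai2, an inhibitory one, was at 10.96 and 10.76. Prkx, a kinase related to protein kinase A, was at 6.50 and 7.04 (0.54).

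Genes that CREB is known to induce formed the last list. Of 20 on the list, 16 were past the floor, 11 higher in No.4 and 5 in No.8, with a median of -0.32. Over all genes past the floor, 53.2% were higher in No.8 and the median was 0.04. At 1.5-fold, 5 were higher in No.4 (31.2%, against 7.93% of all genes) and 2 in No.8 (12.5%, against 9.87%). Those higher in No.4 included Scg2 (8.39 and 4.99, 10.6-fold), Rgs2 (8.56 and 6.54, 4.06-fold), Per1 (6.99 and 5.33, 3.16-fold) and Sik1, the 4 that reached 2-fold (25%, against 5.47% of all genes in both directions), and Vgf (6.80 and 6.01, 1.73-fold). Counted from 5.67, Scg2 was at least 6.59-fold and Per1 at least 2.49-fold higher in No.4. Those higher in No.8 were Fos (8.15 and 8.93, 1.73-fold) and Nr4a2 (4.74 and 5.70), the latter 1.95-fold as deposited but only 1.02-fold counted from 5.67. Crem, whose short form ICER is an induced repressor of the pathway, was at 5.73 and 5.52. Of the feedback enzymes, Pde4b differed by 0.30 with both levels under 5.67, and Pde4d was below the floor in both colonies. Sik1 and Crem are on both lists. Both lists were chosen with earlier results of these data known, so their shares do not show that either set differs as a group.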

How the data were processed

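Total RNA of 2 C6 colonies was labelled with biotin through a whole-transcript GeneChip kit, per the labels' protocols. The table deposited by the authors holds 1 value per feature and colony, for 36685 features, from 1.22 to 13.34. These values were taken as log2 levels processed by the authors before they were deposited, with steps (background correction, normalization, summarization) not given in the sources used here. The log scale itself is unstated and was inferred from the range. Of the features, 18511 had exactly 1 gene symbol in the platform annotation, 575 several and 17599 none, and only the first were used. The 71 members had 74 features, all with the same symbol in RefSeq's GRCr8 gene table. The feature with the highest mean level stood for a gene. In GRCr8, 6 further genes that meet the rule (Adcy9, Akap17b, Crebrf, Pde11a, Pde6g and Prkar1a) had no such feature and are not analysed here.

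Differences were computed in pandas 2.3.3 with no further scaling. The medians of all features were 4.34 in No.4 and 4.31 in No.8. With 1 array per colony no test was possible. Counts at 1.5-fold and 2-fold are set beside the same counts over all genes past the floor. Counts use the deposited differences, and the fold printed for a gene below the floor in 1 colony is counted from the floor. The counting steps were tested on simulated data with 200 changed genes. The members, lists and marks were chosen with earlier results of these data known. Genes were named by step: every member past the floor at 1.5-fold, the members that define a step, up to 4 further examples, and listed genes past the floor at 1.5-fold with up to 3 others.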

Additional observations from a re-analysis of the deposited data

How the results depend on the processing

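With 1 array per colony, no result has an error, and levels under 5.67 may be near background. The median difference of the members past the floor stayed above 0 under all 11 alternatives, from 0.07 to 0.21. The 9 members at least 1.5-fold higher in No.8 became 5 once a loess trend over mean level was subtracted, 2 with an offset of 64 on the linear scale and 5 without the cyclic GMP enzymes and the other Pde and Creb symbols. The 2 members at least 1.5-fold higher in No.4 became 1 with the floor at 5.67, 1 with levels also raised to that mark and 1 with the offset. The count at 2-fold, Creb3l1, became 0 with the offset, 0 without those other symbols and 0 with levels raised to 5.67. Of the 11 members at 1.5-fold, 3 no longer reached it after centring on the median difference, 4 after the loess and 8 with the offset, which shrinks differences of dim genes by construction, and 0 changed sign. With the floor at 5.67, Rapgef3 and Crebl2 were left out, and with levels raised to 5.67 Pde7b (0.36) also fell under 1.5-fold. Raising levels to 4.33 or to 5.67 was chosen after seeing the data. All 11 stayed at 1.5-fold under quantile normalization, with no floor, with levels raised to 4.33 and with either other choice of feature. No paired analysis was possible because each colony has 1 array.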

Other observations

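The following genes were chosen after their values were seen. Of the 10 nearest neighbours of Creb3l1 in gene order, 5 on each side, all were measured and 8 were past the floor. Those 8 differed by -0.26 to 0.45, against 2.47 for Creb3l1, and the next gene on either side, Dgkz and Phf21a, differed by 0.14 and 0.07. Factors of the Creb3 type are released from the membrane by the site-1 and site-2 proteases. Mbtps1, the site-1 protease gene, was at 7.99 in No.4 and 7.89 in No.8, and Mbtps2, the site-2 protease gene, at 7.30 and 6.59 (1.64-fold higher in No.4). Atf6, a stress sensor cut by the same proteases, was at 9.44 and 8.78 (1.58-fold higher in No.4). Other factors cut in that way differed less, Atf6b by 0.10, Srebf2 by -0.10 and Srebf1 by -0.42. Col1a1, a collagen gene that the Creb3l1 protein is known to activate in bone-forming cells, was at 8.25 and 10.64 (5.22-fold higher in No.8). Whether the Creb3l1 and Col1a1 differences are linked in these colonies was not tested. With 1 array per colony these values say nothing about whether the genes move together in other C6 colonies.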
